A study of Mus musculus with 5 samples.

Results

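The cells described here were the blood endothelial cells of mouse mammary glands, 287 of the 28588 cells kept from 5 droplet libraries. A barcode was kept with at least 500 genes detected and at most 15% mitochondrial counts. It was taken as a blood endothelial cell when at least 3 of 8 endothelial genes (Pecam1, Cdh5, Kdr, Emcn, Egfl7, Flt1, Cldn5 and Plvap) had a UMI, a count of 1 captured transcript, and these UMIs summed to at least 5. A cell also had to hold no UMI of the lymphatic genes Prox1 and Mmrn1, none of the leukocyte gene Ptprc and none of the epithelial gene Epcam. Col1a1, Col1a2, Col3a1 and Dcn together had to stay under 50 of 10000 UMIs. Of 418 kept cells that met the endothelial criteria, 56 held Prox1 or Mmrn1, 46 held Epcam, 29 reached the collagen limit and 14 held Ptprc, and a cell could fail on several. The gate was thus set on measured values, and the levels of its genes are given below only as a description.

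The study profiled mammary glands of Frmd3 knockout (KO) mice and of wild-type (WT) mice by 10x Genomics 3′ single-cell RNA sequencing, and its title names tumor suppression, epithelial fate and the Notch pathway. There were 3 KO libraries (KO1, KO2 and KO3) and 2 WT libraries (WT1 and WT2). The design text speaks of 5 mice, and each library was taken as 1 mouse, although no label ties a library to a single animal. The labels used here give no treatment, age, sex or strain, and do not give which part of Frmd3 was removed or from which cells. All libraries came from the same tissue, and no gate or sort for endothelial cells is stated.

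Endothelial cells line blood vessels and pass oxygen, nutrients and leukocytes between blood and tissue. Arteries, capillaries and veins are lined by endothelial cells with different programmes: arterial cells depend on Notch signalling and strong flow, capillary cells of fat-rich tissue take up fatty acids, and venous cells of small venules capture leukocytes. The mammary gland is embedded in a fat pad, so its vessels serve both epithelium and adipose tissue.

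Endothelial genes are commonly controlled by ETS transcription factors such as ERG and FLI1, whose core site is GGAA. The start-site windows of 1 gene for each vessel class used below (Gja5 arterial, Btnl9 capillary, Selp venous) and of Erg itself are shown so that the regulatory sequence beside these levels can be read. They run from 250 bases before to 50 bases after the start in RefSeq's GRCm38.p6 build, and capitals mark AGGAAG or its reverse complement CTTCCT, searched on both strands.
Gja5 (arterial, GRCm38.p6 chr3:97032152-97032451, plus strand): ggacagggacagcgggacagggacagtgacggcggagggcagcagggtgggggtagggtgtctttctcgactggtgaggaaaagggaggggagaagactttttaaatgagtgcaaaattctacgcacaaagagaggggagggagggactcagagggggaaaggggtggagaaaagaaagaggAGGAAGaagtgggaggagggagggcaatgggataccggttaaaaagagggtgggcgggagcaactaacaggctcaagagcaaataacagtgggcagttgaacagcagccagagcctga
Btnl9 (capillary, GRCm38.p6 chr11:49187040-49187339, minus strand): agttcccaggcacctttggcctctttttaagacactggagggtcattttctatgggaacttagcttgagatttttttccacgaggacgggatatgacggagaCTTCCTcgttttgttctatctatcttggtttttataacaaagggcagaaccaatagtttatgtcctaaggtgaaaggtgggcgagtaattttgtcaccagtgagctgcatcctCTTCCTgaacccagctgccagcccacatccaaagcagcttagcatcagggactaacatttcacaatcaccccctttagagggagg
Selp (venous, GRCm38.p6 chr1:164115014-164115313, plus strand): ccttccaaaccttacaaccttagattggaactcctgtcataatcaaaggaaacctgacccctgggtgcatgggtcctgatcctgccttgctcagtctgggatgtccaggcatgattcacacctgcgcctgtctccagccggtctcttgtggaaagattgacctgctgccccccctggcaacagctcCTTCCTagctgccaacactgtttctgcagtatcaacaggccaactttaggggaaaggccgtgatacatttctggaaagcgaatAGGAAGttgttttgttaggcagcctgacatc
Erg (pan-endothelial, GRCm38.p6 chr16:95586544-95586843, minus strand): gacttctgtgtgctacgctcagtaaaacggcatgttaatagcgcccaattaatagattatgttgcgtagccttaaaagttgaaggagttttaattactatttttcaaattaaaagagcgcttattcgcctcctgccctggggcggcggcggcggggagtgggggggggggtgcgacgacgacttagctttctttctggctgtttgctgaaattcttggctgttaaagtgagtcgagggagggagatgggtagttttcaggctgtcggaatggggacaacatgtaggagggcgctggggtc
Gja5 had 1 such match, Btnl9 2 and Selp 2, while the Erg window printed here, 1 of 3 listed for that gene, had 0. The motif stood in 3 of the 5 gate genes with a window (60%), in 7 of 13 of the other pan-endothelial markers with one (53.85%), in 3 of 10 arterial genes (30%), in 5 of 10 capillary genes (50%) and in 6 of 10 venous genes (60%). Among all 27025 windows of that length, 9498 held it (35.15%). A match describes letters in a window and says nothing of whether a factor binds there.

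Depth differed between libraries and between cells. The libraries held 74947873, 66053067 and 24197344 UMIs in KO1, KO2 and KO3, and 55783468 and 87577099 UMIs in WT1 and WT2. The endothelial cells had median UMI counts of 4985.5, 9407.5 and 6097 in KO1, KO2 and KO3, against 6137 and 8323 in WT1 and WT2. KO3 stood apart in 2 ways: 18.5% of its barcodes were over the mitochondrial limit, against 3.80% to 13.2% in the others, and it alone was processed with Cell Ranger 6.1.2 in place of 6.0.2, so that version and library cannot be told apart. Between 2 libraries, 108 barcodes were shared, and 1 of the endothelial barcodes was also found in another library.

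Blood endothelial cells were a small class whose number differed strongly between libraries. KO1, KO2 and KO3 held 24, 72 and 141 of them, against 31 in WT1 and 19 in WT2. They made up 0.232% of kept cells in KO1 (95% exact Clopper-Pearson interval 0.148% to 0.344%), 1.55% in KO2 (1.21% to 1.95%) and 6.19% in KO3 (5.23% to 7.26%), against 0.613% in WT1 (0.417% to 0.868%) and 0.305% in WT2 (0.184% to 0.476%). These intervals cover counting error only. KO1 had the lowest share of the 5 libraries and KO2 and KO3 the highest, so the KO range enclosed both WT libraries.

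The mean share was 2.66% ± 3.13 in KO and 0.459% ± 0.218 in WT (SD, n = 3 and 2), a KO minus WT difference of 2.20 percentage points. An exact two-sided permutation test over all 10 arrangements of the genotype labels gave p = 0.7, where 0.1 is the smallest p this design allows. Most of the difference came from KO3: without it the KO mean was 0.890% and the difference 0.431 points. KO3 also had the fewest kept cells, 2279, against 4649 to 10366 in the other libraries, and how far cell capture or dissociation set the shares was not tested. In a thinned version every cell was brought to 1000 UMIs, and cells with fewer were left out. The gate was lowered there to 3 UMIs over 2 genes, so depth was not the only change. The difference was then 2.29 points.

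**Figure D1:**
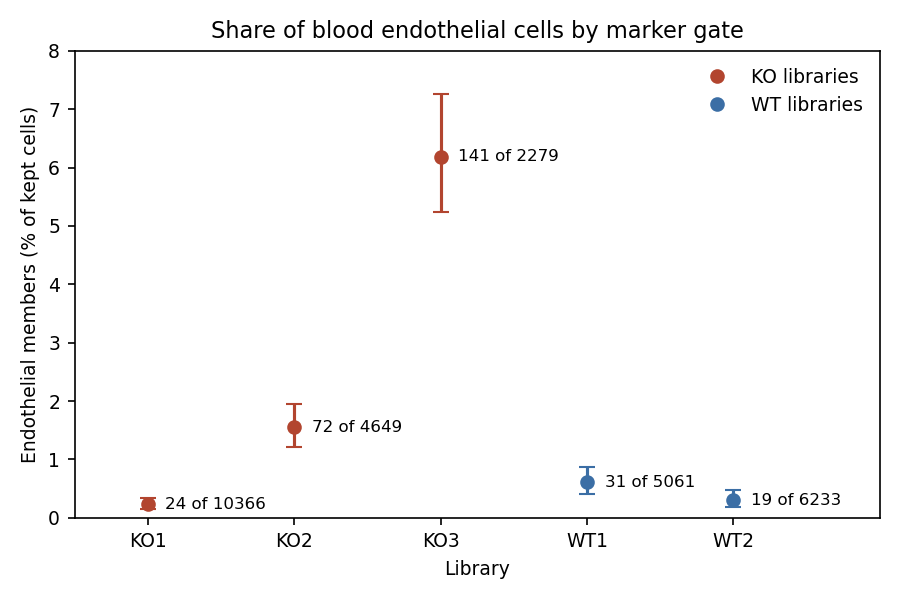
Blood endothelial cells by the marker gate (members) as a percentage of kept cells in each library (vertical axis, percent), KO libraries on the left and WT on the right. Points are libraries, bars are exact 95% binomial intervals for counting error, and KO3 stands at 6.19% while the other 4 libraries lie between 0.232% and 1.55%.

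Few cells lay at the edge of the gate. There were 10 endothelial cells with a gate sum of 5 or 6 UMIs, with a median of 1475 UMIs in all. Just outside stood 6 cells with 3 gate genes and a sum of 3 or 4 (median 1744 UMIs) and 3 cells with 2 gate genes and a sum of at least 5.

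The label held against markers that the gate did not use. All 25 other pan-endothelial markers had UMIs, and 24 of them were higher than in the other kept cells. Their summed level was 9774, 10313 and 10094 counts per 1000000 of the endothelial cells' UMIs (CPM) in KO1, KO2 and KO3, and 9586 and 10188 CPM in WT1 and WT2. The mean was 9991 CPM in endothelial cells, against 1097 CPM in the other kept cells. Erg, an ETS factor that maintains endothelial identity, averaged 172 CPM, against 1.35 CPM in other kept cells. Tie1, a receptor of the angiopoietin system, averaged 228 against 1.67 CPM. Both genes stood in a narrow range over the 5 libraries, Erg between 115 and 227 CPM and Tie1 between 161 and 314 CPM.

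Defining genes of several other cell types were at 0. These were the genes of lymphatic endothelium (Prox1, Mmrn1), epithelium (Epcam, Elf5), milk secretion (Csn2, Wap), T cells (Cd3e), adipocytes (Lep) and Schwann cells (Sox10), the first 3 of these and Ptprc being at 0 by the rule of the gate. The fibroblast list summed to 846, 686 and 790 CPM in KO1, KO2 and KO3 and to 352 and 838 CPM in WT1 and WT2, and averaged 703 CPM, against 28051 CPM in the other kept cells. The leukocyte list averaged 874 CPM, against 1401 CPM in other kept cells, and in KO2 it was higher in endothelial cells (1273 CPM) than in the other cells (661 CPM). Srgn, a proteoglycan gene that endothelium also expresses, made up most of it in KO2, at 1259 CPM. The lists of 2 cell types were higher on average in endothelial cells. The pericyte and smooth muscle list had a mean of 1457 CPM, against 606 CPM in other kept cells, and is taken up below. The adipocyte list had 179, 2.35 and 351 CPM in KO1, KO2 and KO3, against 201.3 and 0 CPM in WT1 and WT2, with a mean of 147 CPM, against 8.08 CPM in other kept cells. Of its 8 genes, 7 had UMIs and Lep alone was at 0. A simulated-doublet caller marked 1 of the 287 cells, in KO1. It simulates random pairs of all kept cells and is therefore weak for pairs of small classes.

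Among named genes outside the gate with at least 50 CPM in endothelial cells, those with the largest ratio to other kept cells included several of the arterial programme. Stmn2, a stathmin-family microtubule regulator, averaged 356 against 1.42 CPM, a ratio of 250. Gkn3 had a ratio of 230, Gja5 (connexin 40, the gap junction protein of arterial endothelium) 208, Sox17 (a transcription factor of arterial fate) 159 and Dll4 (the Notch ligand of arteries and sprouting tips) 157. Ptprb, the phosphatase that acts on TIE2 and VE-cadherin, had a ratio of 163, and Nos3, the nitric oxide synthase of endothelium, 101. These ratios are descriptions, since the cells were chosen on genes that vary with them.

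The gate genes themselves fell into a pattern that separated libraries without following genotype. Kdr, the main VEGF receptor, stood at 358, 24.7 and 787 CPM in KO1, KO2 and KO3, against 514 and 46.5 CPM in WT1 and WT2. Plvap, the diaphragm protein of fenestrae and caveolae, stood at 704, 45.8 and 887 CPM in the KO libraries, against 974 and 40.7 CPM in WT. Both were low in KO2 and WT2 and high in the other 3 libraries. Cldn5, a tight junction claudin, ran the other way, with 1026, 1935 and 900 CPM in KO1, KO2 and KO3, against 949 and 1670 CPM in WT1 and WT2. Cdh5, the VE-cadherin of endothelial junctions, did likewise with 766, 1322 and 748 CPM in KO, against 654 and 1204 CPM in WT. Emcn, the sialomucin of capillaries and veins, and Flt1, the decoy VEGF receptor, were low in KO2 and WT2 like Kdr, Emcn at 92.8 and 58.2 CPM against 367 to 457 CPM in the other 3 libraries and Flt1 at 686 and 710 CPM against 1291 to 1649 CPM. Pecam1, the adhesion molecule CD31, lay between 1028 and 1769 CPM and the secreted factor Egfl7 between 395 and 593 CPM, each highest in WT2.

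Clustering of the 287 cells without the gate genes gave 4 subclusters, named from marker lists where their leading genes allowed it. The arterial-like subcluster of 104 cells was led by Gkn3, Cytl1, Pthlh, Dkk2, Mgp (a matrix inhibitor of calcification) and Lox (the enzyme that cross-links elastin and collagen). Its Mgp level was 10103 CPM, against 163 CPM in the other endothelial cells. The capillary-like subcluster of 91 cells was led by Car4 (a carbonic anhydrase on the capillary surface), Aqp7 (a water and glycerol channel), Lpl (lipoprotein lipase) and Btnl9, at 845 CPM against 102 CPM for Btnl9. Cfd and Car3, which adipocytes express strongly, were also among its leading genes. The adipocyte list summed to 737 CPM in it, against 8.03 CPM in the arterial-like, 22.9 CPM in the venous-like and 181 CPM in the fourth subcluster. Only the adipocyte hormone gene Lep was at 0, and the part of adipocyte RNA in these levels was not tested.

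The venous-like subcluster of 51 cells was led by Ackr1 (the chemokine receptor of venules), Selp and Sele (the P- and E-selectins that catch leukocytes), Csf3 and Lrg1. Its Selp level was 2135 CPM, against 85.4 CPM in the other endothelial cells. The fourth subcluster, of 41 cells, was left unnamed. Its leading genes were those of pericytes, the mural cells that wrap capillaries: Enpep at 127 against 1.0 CPM, Kcne4 at 190 against 4.4 CPM, Pdgfrb (the PDGF receptor of mural cells) at 310 against 8.3 CPM and Steap4 at 326 against 9.7 CPM.

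The fourth subcluster also held the endothelial programme, and its cells had the highest median depth, 10300 UMIs, against 4589 to 8446 in the other subclusters. Its capillary list summed to 19122 CPM, below the 42214 CPM of the capillary-like cells, and its pericyte list to 5226 CPM, above the 388 to 1000 CPM of the other 3. Whether these barcodes hold an endothelial cell together with a pericyte was not tested beyond the doublet caller named above. These subcluster genes are a description, because the same cells were clustered on them.

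The make-up of the endothelial cells split the libraries into KO2 and WT2 on one side and KO1, KO3 and WT1 on the other. Arterial-like cells were 16.7%, 98.6% and 2.84% of the endothelial cells of KO1, KO2 and KO3, against 19.4% and 100% in WT1 and WT2. Capillary-like cells were 37.5%, 0% and 50.4% in the KO libraries, against 35.5% and 0% in WT. Venous-like cells were 33.3%, 1.39% and 22% in KO, against 35.5% and 0% in WT. The unnamed subcluster with pericyte genes held 12.5%, 0% and 24.8% in KO, against 9.68% and 0% in WT. Thus, at the resolution used, 71 of the 72 endothelial cells of KO2 and all 19 of WT2 were arterial-like, while the other 3 libraries held all 4 kinds. Finer clustering left KO1 with no arterial-like cells and changed the other arterial-like shares, as given below.

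Counting error leaves little room for capillary-like cells in KO2: 0 of 72 has an exact 95% upper limit of 4.99%. In WT2, 0 of 19 allows up to 17.6%. KO2 and WT2 carry the same replicate number in the labels, and no label says what that number marks. The split was also present among all barcodes, before any filter or gate. There, 15, 2 and 134 in KO1, KO2 and KO3 and 28 and 0 in WT1 and WT2 had at least 3 UMIs over at least 2 of Gpihbp1, Car4, Btnl9 and Cd300lg. With the arterial genes Gja5, Gkn3, Stmn2 and Bmx the counts were 6, 103 and 12 in KO1, KO2 and KO3 and 7 and 26 in WT1 and WT2. These barcodes include the endothelial cells above and are no separate check. Such cells were 107 of the 134 in KO3 and 62 of the 103 in KO2. Gkn3, Car4 and Btnl9 were also leading genes of the subclusters. Among kept cells not taken as endothelial, 3, 2 and 25 met the capillary rule in the KO libraries, against 13 and 0 in WT. The arterial rule was met there by 1, 40 and 1 in KO, against 1 and 7 in WT.

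**Figure D2:**
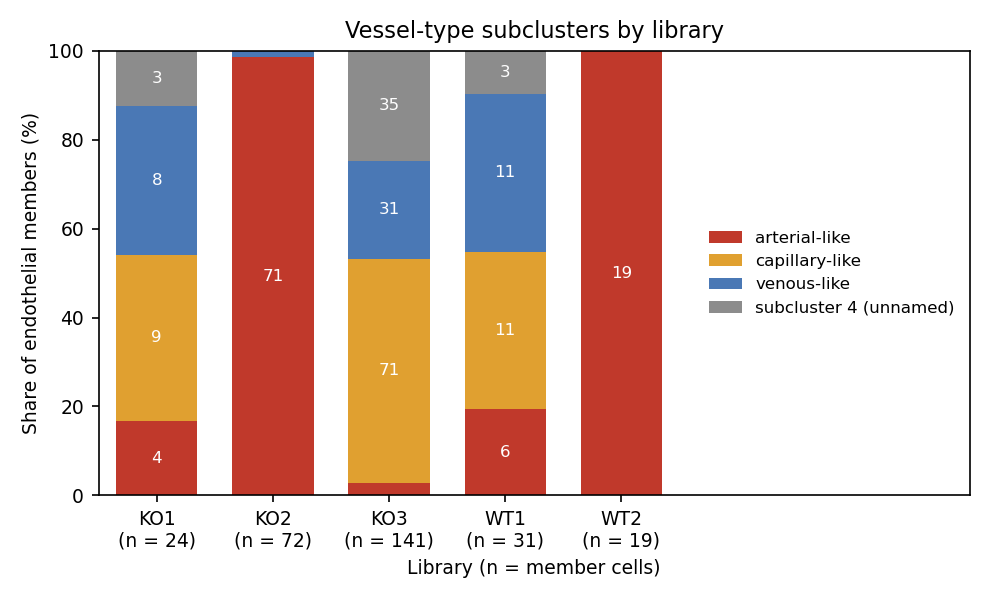
Make-up of the endothelial cells of each library by subcluster (vertical axis, percent of endothelial cells), KO libraries on the left and WT on the right. The bars of KO2 and WT2 are 98.6% and 100% arterial-like, and those of KO1, KO3 and WT1 hold all 4 subclusters.

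Genotype did not separate the subcluster shares. With the libraries of at least 20 endothelial cells (KO1, KO2, KO3 and WT1), the KO minus WT differences were 20.02 points for arterial-like, -6.20 for capillary-like, -16.6 for venous-like and 2.76 for the unnamed subcluster. The exact two-sided permutation p-values were 1, 1, 0.5 and 0.75, all 1 after Benjamini-Hochberg adjustment over the 4 subclusters, and 0.25 was the smallest p possible. With WT2 added the differences were -20.3, 11.5, 1.16 and 7.60 points, so 3 of the 4 changed sign (exact permutation p = 0.5, 0.6, 0.9 and 0.5).

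The arterial programme was abundant in KO2 and WT2. Gja5 stood at 49.4, 216 and 21.9 CPM in KO1, KO2 and KO3, against 39.6 and 244 CPM in WT1 and WT2. Fbln5, a protein of elastic fibres, stood at 636, 1325 and 152 CPM in KO, against 579 and 1204 CPM in WT. Vcam1, the adhesion molecule for integrin-bearing leukocytes that was listed here as a venous gene, stood at 49.4, 1325 and 110 CPM in KO, against 115 and 849 CPM in WT. For each of these genes the 2 highest libraries were KO2 and WT2, and the genotypes overlapped. The summed arterial list gave 3787, 16842 and 2982 CPM in KO1, KO2 and KO3, against 3513 and 13900 CPM in WT1 and WT2.

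The capillary programme of lipid handling ran the opposite way. Gpihbp1, which carries lipoprotein lipase across the capillary wall, stood at 395, 0 and 853 CPM in KO1, KO2 and KO3, against 349 and 0 CPM in WT1 and WT2. The 0 UMIs allow up to 3.52 CPM in KO2 and 17.5 CPM in WT2, taking 3 UMIs as the floor. Cd36, the fatty acid translocase, stood at 2057, 64.6 and 2348 CPM in KO, against 1686 and 23.3 CPM in WT. KO2 and WT2 were low for both genes and the other 3 libraries high.

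Fabp4, a fatty acid carrier protein, was lower but not absent in those 2 libraries, with 15181, 6549 and 18393 CPM in KO1, KO2 and KO3, against 14321 and 3729.6 CPM in WT1 and WT2. Aqp1, a water channel, stood at 1273, 12.9 and 1045 CPM in KO, against 1179 and 40.7 CPM in WT. The summed capillary list gave 21755, 6928 and 26806 CPM in KO, against 20347 and 4282 CPM in WT. Again KO2 and WT2 formed the low pair.

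Several venous genes were low in the same pair, but the list as a whole did not clearly follow them. The list holds the gate gene Plvap, and also Vcam1, which was high in that pair as given above. The sum of the list was 3664, 3402 and 3858 CPM in KO1, KO2 and KO3, against 4466 and 2688 CPM in WT1 and WT2. KO2 lay below KO1 by less than their difference in Plvap alone (45.8 and 704 CPM). The low place of KO2 in these sums thus rests on a gene that chose the cells. Ackr1 stood at 124, 2.35 and 88.7 CPM in KO1, KO2 and KO3, against 277 and 0 CPM in WT1 and WT2. Selp stood at 445, 72.8 and 701 CPM in KO, against 669 and 0 CPM in WT. Nr2f2, the transcription factor of venous identity, stood at 74.1, 0 and 152 CPM in KO, against 97.1 and 5.82 CPM in WT. Vwf, the von Willebrand factor of haemostasis, did not follow them and was highest in KO2 and WT2, at 371, 667 and 250 CPM in KO, against 280 and 745 CPM in WT.

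**Figure D3:**
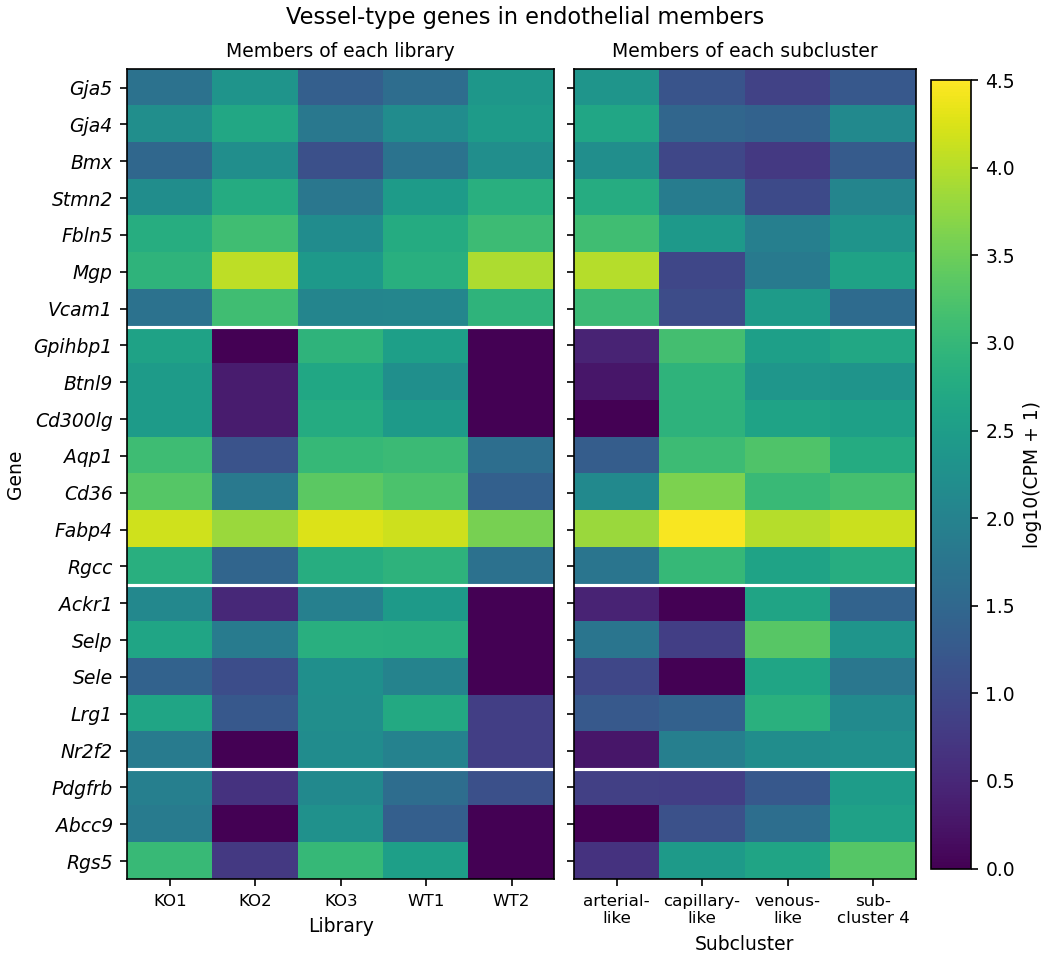
Levels of vessel-type genes (rows) in the endothelial cells of each library (left panel, KO libraries left of WT) and of each subcluster (right panel), coloured by log10 of CPM plus 1. KO2 and WT2 share high levels of the arterial genes and Vcam1 and low levels of the capillary genes and the 5 venous genes shown, as for Gpihbp1 with 0 CPM in both.

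Receptors of the VEGF family divided by vessel kind. Nrp1, the neuropilin co-receptor of VEGF and semaphorins, stood at 661, 127 and 551 CPM in KO1, KO2 and KO3, against 633 and 192 CPM in WT1 and WT2. Nrp2, a co-receptor of venous and lymphatic endothelium, stood at 130, 8.22 and 238 CPM in KO, against 234 and 0 CPM in WT, and at 426 CPM in the venous-like cells, against 1.79 CPM in the arterial-like ones. Both were low in KO2 and WT2. Vegfc, a ligand of lymphatic growth, ran the other way among subclusters, at 120 CPM in arterial-like and 6.87 CPM in venous-like cells, with 74.1, 99.9 and 12.3 CPM in KO, against 93.5 and 169 CPM in WT.

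The transcription factors that hold endothelial identity were even across libraries in their sum, but not each gene by itself. The list of 22 ETS, SOX, GATA and other factors summed to 3719, 3612 and 4075 CPM in KO1, KO2 and KO3, against 3908 and 4154 CPM in WT1 and WT2, and averaged 738 CPM in other kept cells. Of 21 tested, 0 were called and 8 had a positive KO over WT change (median -0.15). Within it, Sox18, a factor of vascular development, was uneven, with 49.4, 114 and 7.90 CPM in KO, against 17.98 and 46.5 CPM in WT.

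Proliferation genes were highest in KO2. Top2a, the topoisomerase of dividing cells, stood at 12.4, 197 and 12.3 CPM in KO1, KO2 and KO3, against 3.60 and 34.9 CPM in WT1 and WT2. Mki67, the proliferation antigen Ki-67, stood at 0, 71.7 and 5.27 CPM in KO, against 7.19 and 23.3 CPM in WT. KO2 was the highest library for both genes and WT2 the next for both, and both levels stood highest in the arterial-like subcluster, at 156 and 58.0 CPM. The WT2 values rest on few UMIs, as 1 UMI is 5.82 CPM there. The whole cell cycle list of 15 genes summed to 259.5, 680 and 273 CPM in KO, against 360 and 320 CPM in WT. KO2 was again highest, but WT1 and not WT2 came next. Esr1, the oestrogen receptor, was scarce in endothelial cells, at 0, 4.70 and 2.63 CPM in KO, against 3.60 and 17.5 CPM in WT, beside a mean of 72.3 CPM in other kept cells.

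Among basement membrane genes, Hspg2, the heparan sulphate proteoglycan perlecan, stood at 272, 71.7 and 519 CPM in KO1, KO2 and KO3, against 309 and 64.0 CPM in WT1 and WT2. Its level was 73.2 CPM in arterial-like cells, against 430 to 524 CPM in the other 3 subclusters. The list as a whole did not follow that order, with sums of 5585, 5007 and 8531 CPM in KO, against 4991 and 4020.5 CPM in WT. The immediate-early list, of genes induced within minutes of a stimulus, summed to 9849, 4837 and 16172 CPM in KO, against 11531 and 10031 CPM in WT, with KO3 highest and KO2 lowest. Of its 14 genes tested 0 were called and 6 had a positive change (median -0.20).

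Pericyte genes inside the endothelial gate differed between libraries. Rgs5, a regulator of G-protein signalling typical of pericytes, stood at 1075, 4.70 and 1050.02 CPM in KO1, KO2 and KO3, against 342 and 0 CPM in WT1 and WT2. The summed pericyte and smooth muscle list gave 2107, 1006 and 2406 CPM in KO, against 1593 and 175 CPM in WT. Its contractile smooth muscle genes did not share the pattern of Rgs5: Tagln stood at 235, 406 and 241 CPM in KO, against 291 and 52.4 CPM in WT, and Acta2 at 148, 236 and 129 CPM in KO, against 295 and 11.6 CPM in WT. In summed counts of a library, a change in the number of cells of a kind and a change in RNA per cell cannot be told apart, and this holds for every level given per library here.

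Similarity over many genes showed the same grouping. Over 4426 genes, the correlation of log CPM between libraries was 0.907 for KO2 and WT2, 0.875 for KO1 and WT1, 0.894 for KO3 and WT1 and 0.874 for KO1 and KO3. It was 0.732 for KO1 and KO2, 0.697 for KO2 and KO3 and 0.733 for WT1 and WT2. These correlations are across genes, which are not independent, and are given as a description. The 2 WT libraries were less alike than KO2 and WT2.

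Where 3 libraries held capillary-like cells, their programme could be read within that kind. Gpihbp1 stood at 1472 CPM in KO1 and 1441 CPM in KO3, against 1252 CPM in WT1. Fabp4 stood at 27219 and 29260 CPM in KO1 and KO3, against 26080 CPM in WT1. Kdr stood at 691 and 987 CPM, against 825 CPM in WT1. WT1 thus lay within or close to the range of the 2 KO libraries for these genes, with 9, 71 and 11 capillary-like cells in KO1, KO3 and WT1. Lpl differed more, with 60.1 and 989 CPM in KO1 and KO3, against 260 CPM in WT1.

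The genotype comparison asked which genes differed in endothelial cells between KO and WT mice. UMIs were summed per library, and WT2 with 19 cells fell under the minimum of 20, so WT was WT1 alone and was assumed to vary like the KO libraries. edgeR's quasi-likelihood test called 0 of 7548 genes at a Benjamini-Hochberg adjusted p of 0.05 (0%), and 83 (1.10%) had an unadjusted p under 0.05. DESeq2 also called 0, with 37 under 0.05 unadjusted. With all 5 libraries, edgeR called 0 of 4426 (0%), with 47 under 0.05 unadjusted, and DESeq2 called 0, with 21. No endothelial gene can therefore be said to have changed with the genotype in these fits.

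The ranges of the KO and WT libraries did not overlap for 1164 of the 7548 genes (15.4%), 608 of them higher in KO (8.06%) and 556 lower (7.37%). The 16 genes below had the smallest unadjusted p-values among such genes with at least 20 CPM in the higher genotype, 8 in each direction, and none passed the adjusted threshold (adjusted p = 0.9998 for each). Art3, an ADP-ribosyltransferase family gene, had 74.1, 39.9 and 36 CPM in KO1, KO2 and KO3, against 7.19 and 5.82 CPM in WT1 and WT2, a log2 fold change of 2.75 ± 0.89 (SE). Pcnx had 55.6, 35.2 and 68.5 CPM in KO, against 10.8 and 23.3 CPM in WT (2.34 ± 0.78). Desi2 had 80.3, 67.0 and 40.4 CPM in KO, against 14.4 and 29.1 CPM in WT (2.14 ± 0.77). With WT2 in the fit the log2 fold change was 2.80 for Art3, 1.70 for Pcnx and 1.53 for Desi2, again with no call. Without the subcluster with pericyte genes Art3 had 8.01, 39.9 and 15.6 CPM in KO, against 0 and 5.82 CPM in WT. These rest on few UMIs in WT, where 1 UMI is 3.60 CPM in WT1 and 5.82 CPM in WT2.

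Mtx2, a mitochondrial outer membrane import gene, had 43.2, 21.1 and 19.3 CPM in KO, against 0 and 5.82 CPM in WT, and Arfgef2, an exchange factor for ARF GTPases, had 49.4, 14.1 and 14.9 CPM, against 0 in both WT libraries. With 0 UMIs in WT1, which allows up to 10.8 CPM, their fitted fold changes are not bounds and are not given. Txndc5, Uspl1 and Zmiz2 completed the higher group.

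Of those lower in KO, F3, the tissue factor that starts coagulation, had 6.18, 8.22 and 2.63 CPM in KO1, KO2 and KO3, against 93.5 and 23.3 CPM in WT1 and WT2 (log2 fold change -3.98 ± 0.73, SE). Its unadjusted edgeR p of 0.00118 became 0.9998 after adjustment. Gadd45g, a stress-response gene, had 451, 322 and 400 CPM in KO, against 1010.3 and 559 CPM in WT (-1.30 ± 0.38). Plagl1, an imprinted zinc finger gene, had 18.5, 25.8 and 17.6 CPM in KO, against 71.9 and 75.6 CPM in WT (-1.68 ± 0.57). Without the cells of the subcluster with pericyte genes it had 24.03, 25.8 and 7.08 CPM in KO, against 19.5 and 75.6 CPM in WT, and its log2 fold change was -0.05. Over all endothelial cells both WT libraries lay above all 3 KO libraries for each of these genes, as their choice required.

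Svbp, a partner of the tubulin-cleaving vasohibins, had 24.7, 23.5 and 22.8 CPM in KO, against 75.5 and 58.2 CPM in WT (-1.60 ± 0.51). Clca3a1 had 37.1, 35.2 and 29.9 CPM in KO, against 101 and 81.5 CPM in WT (-1.50 ± 0.48). Fh1, the fumarase of the citric acid cycle, had 12.4, 9.40 and 9.66 CPM in KO, against 50.3 and 17.5 CPM in WT. Ssu2 and Mir155hg completed the lower group. As for the genes above, the separate ranges were required by the choice.

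**Figure D4:**
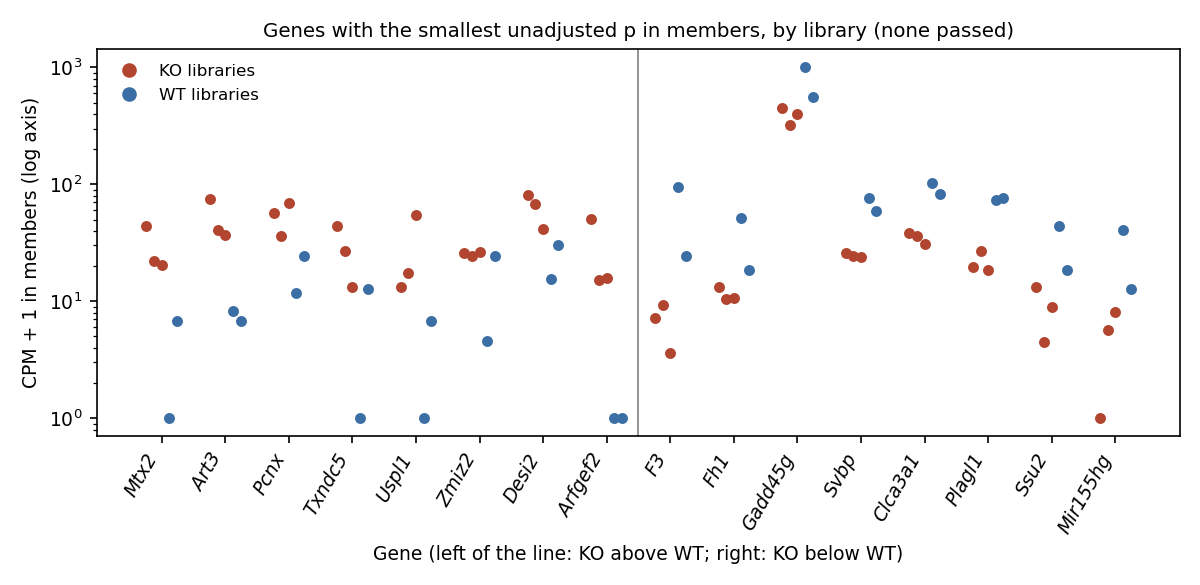
Levels of the 16 named genes in the endothelial cells (vertical axis, CPM plus 1 on a log scale), 1 point per library, with genes higher in KO left of the line and genes lower in KO right of it. The ranges do not overlap because the genes were chosen for that, and none passed the adjusted threshold of 0.05.

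Composition was held more even by taking the capillary-like and venous-like cells alone, in KO1, KO3 and WT1 (17, 102 and 22 cells), a comparison added after seeing the data. These were 9, 71 and 11 capillary-like and 8, 31 and 11 venous-like cells, so the mix of the 2 kinds still differed. Here edgeR called 5 of 3132 genes (0.160%), 1 higher in KO (0.0319%) and 4 lower (0.128%). Cd74, the invariant chain of MHC class II, was lower with 34.1 and 11.7 CPM in KO1 and KO3, against 356 CPM in WT1 (log2 fold change -4.48 ± 0.62, adjusted p = 2.19e-09). Macrophages also express Cd74, and the macrophage list over all endothelial cells was 68.0, 16.4 and 23.7 CPM in KO1, KO2 and KO3, against 119 and 17.5 CPM in WT1 and WT2, highest in WT1. Its part in the Cd74 difference was not tested. Cdkn1c, an imprinted inhibitor of the cell cycle, had 79.5 and 68.8 CPM in KO1 and KO3, against 362 CPM in WT1 (-2.31 ± 0.52, adjusted p = 0.0104). F3 had 11.4 and 2.93 CPM, against 152 CPM (-5.04 ± 1.24, adjusted p = 0.0367), and rested on 1 and 2 UMIs in KO1 and KO3. Procr, the protein C receptor that restrains coagulation, had 56.8 and 93.7 CPM, against 343 CPM (-2.02 ± 0.51, adjusted p = 0.0499).

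Thbs1, the matrix protein thrombospondin 1, was the gene called higher in KO, with 136 and 158 CPM in KO1 and KO3, against 6.35 CPM in WT1. Its WT1 value is 1 UMI, and over all endothelial cells Thbs1 had 117, 41.1 and 212 CPM in KO1, KO2 and KO3, against 183 and 23.3 CPM in WT1 and WT2, with overlapping ranges. Since WT is 1 library in this comparison, a difference of genotype and a property of WT1 cannot be told apart. Over all endothelial cells Cd74 had 37.1, 237 and 14.0 CPM in KO, against 248 and 111 CPM in WT, and KO2 was above WT2. Cdkn1c had 68.0, 18.8 and 78.1 CPM in KO, against 288 and 52.4 CPM in WT, and WT2 lay inside the KO range.

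Leaving out KO2 from the comparison of all endothelial cells gave 16 calls of 4976 genes (0.322%), of which 11 were lower in KO (0.221%), and 4 of them, Cd74, Cdkn1c, F3 and Procr, were also among the 5 above. The pericyte genes Rgs5 and Abcc9 and the fibroblast gene Col3a1 were among these 16. The pericyte list stood at 2107 and 2406 CPM in KO1 and KO3, against 1593 CPM in WT1, and its part in these calls was not tested. This comparison and the one above used the same libraries, KO1, KO3 and WT1, and shared the capillary-like and venous-like cells. The genes found in both are therefore no repeat in other samples.

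Notch signalling works by ligands on one cell (Dll4, Jag1, Jag2) that trigger cleavage of receptors on the next (Notch1, Notch4), whose released part drives Hes and Hey repressors through Rbpj. In endothelial cells the ligand Dll4 stood at 86.5, 114 and 67.6 CPM in KO1, KO2 and KO3, against 108 and 140 CPM in WT1 and WT2. Jag1 stood at 61.8, 150 and 46.5 CPM in KO, against 108 and 163 CPM in WT. The genotypes overlapped for both ligands.

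The receptor Notch1 stood at 309, 488 and 301 CPM in KO, against 356 and 547 CPM in WT. Notch4, the receptor largely restricted to endothelium, stood at 30.9, 63.4 and 60.6 CPM in KO, against 32.4 and 81.5 CPM in WT. Both were highest in WT2, a library of arterial-like cells, and the genotypes overlapped. Of the targets, Hey1 stood at 173, 37.6 and 44.8 CPM in KO, against 71.9 and 93.1 CPM in WT, and Hes1 at 117, 28.2 and 253 CPM in KO, against 115 and 75.6 CPM in WT.

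Of 20 Notch pathway genes tested, 0 were called in edgeR (background 0%). With 4 libraries 15 of the 20 had a positive KO over WT log2 fold change and the median was 0.25, beside 54.8% positive and a median of 0.066 over all genes tested. With WT2 added 6 of 16 were positive and the median was -0.09, so the direction of the list turned with 1 library. The summed list gave 1792, 1737 and 1567 CPM in KO1, KO2 and KO3, against 1568 and 1984 CPM in WT1 and WT2. Between the subclusters Dll4 was lowest in the venous-like cells, at 13.7 CPM against 84.8 to 120 CPM in the others, and Hey1 stood at 2.29 CPM there against 62.6 to 75.7 CPM.

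Frmd3 itself, a gene of the FERM-domain family that links membrane proteins to the cytoskeleton (mm10 chr4:74013442-74202214, plus strand), had few UMIs in endothelial cells. Its UMIs numbered 0 in KO1, 7 in KO2 and 1 in KO3, against 0 in WT1 and 3 in WT2. That is 0, 8.22 and 0.878 CPM in KO, against 0 and 17.5 CPM in WT, while the other kept cells had 1.46 to 2.99 CPM in all libraries. The mean was 5.31 CPM in endothelial cells, on 11 UMIs in all, against 2.16 CPM in the other kept cells. KO2 and WT2 lay above the other cells of their own library, and KO1, KO3 and WT1 below. The 0 UMIs allow up to 18.5 CPM in KO1 and 10.8 CPM in WT1. A 3′ count of a transcript whose deleted part is not given in the labels does not check the genotype. Of 11 related FERM genes tested, 0 were called, 4 had a positive fold change and the median was -0.04, against 5 of 8 and 0.04 with 5 libraries.

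The other vessel pathways gave 0 calls in each list in the 4-library fit. Most of their medians changed sign when WT2 was added, so both are given. The VEGF list holds 2 genes of the gate, the junction list 3 and the shear stress list 1. They were not removed from these counts and medians, which therefore rest in part on genes that chose the cells. For VEGF signalling, the main growth signal of vessels, 5 of 10 genes tested had a positive KO over WT change with a median of -0.11, and 6 of 10 with a median of 0.06 with 5 libraries. For the angiopoietin and TIE genes, which keep vessels quiescent, it was 5 of 6 (median 0.38) with 4 libraries and 3 of 6 (-0.06) with 5. For BMP and TGF-beta signalling it was 10 of 18 (0.04) and 9 of 18 (-0.0034). For the shear stress genes, which include the flow-induced factors Klf2 and Klf4, it was 6 of 9 (0.13) and 4 of 9 (-0.05). Junction genes had 11 of 14 positive and a median of 0.29 with 4 libraries but 6 of 13 and -0.04 with 5.

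Fatty acid uptake genes had 5 of 13 positive (median -0.13) with 4 libraries but 9 of 11 (0.66) with 5. Basement membrane genes had 9 of 12 positive (median 0.18) with 4 libraries and 8 of 11 (0.64) with 5. Haemostasis genes had 7 of 11 positive (0.29) and then 4 of 8 (-0.02), and leukocyte adhesion genes 7 of 15 (-0.28) and then 10 of 15 (0.06). The sum of the fatty acid list was 19493, 6982 and 24195 CPM in KO1, KO2 and KO3, against 17902 and 4137 CPM in WT1 and WT2, low in the 2 libraries without capillary-like cells.

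Antigen presentation genes were varied by library. The MHC class I list summed to 7013, 13111 and 5985 CPM in KO1, KO2 and KO3, against 9291 and 13126 CPM in WT1 and WT2. The class II list, usually of professional presenting cells, summed to 86.5, 539 and 43.9 CPM in KO, against 449 and 314 CPM in WT, and to 2170 CPM in the other kept cells on average. Of 6 class II genes tested, 1 had a positive change (median -0.65), and of 4 tested with 5 libraries 0 were positive (-0.84). The KO and WT ranges overlapped, since KO2 had the highest value. Interferon response genes had 9 of 25 positive and a median of -0.22.

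With 4 libraries, every gene tested in 2 lists had a positive KO over WT change, with 0 called: the heat shock list, 13 of 13 with a median of 1.13, and the fibroblast list, 9 of 9 with a median of 0.55, whose sums overlapped between genotypes as given above. With 5 libraries it was 13 of 13 heat shock genes (median 1.31) but 4 of 6 fibroblast genes (0.45). The heat shock list summed to 7513, 7164 and 28309 CPM in KO1, KO2 and KO3, against 7867 and 5184 CPM in WT1 and WT2. KO1 and KO2 lay between WT2 and WT1, and KO3 stood apart. Hspa1b, an inducible chaperone of the HSP70 family, stood at 216, 82.2 and 4693.5 CPM in KO, against 165 and 46.5 CPM in WT. Hsph1, a co-chaperone of HSP70, stood at 55.6, 17.6 and 1268 CPM in KO, against 57.5 and 17.5 CPM in WT.

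The high level in KO3 was also found in other cells. In fibroblasts chosen by a gate, the list summed to 5829, 5900 and 13883 CPM in KO1, KO2 and KO3, against 6704 and 5543 CPM in WT1 and WT2. In a pericyte gate it summed to 7325, 6758 and 23664 CPM in KO, against 7562 and 8862 CPM in WT. Within the capillary-like endothelial cells it was 9314 CPM in KO1 and 32258 CPM in KO3, against 9268 CPM in WT1. KO3 was the highest library in every class measured, and it also had the highest share of barcodes over the mitochondrial limit. The part of tissue handling in these levels was not tested.

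**Figure D5:**
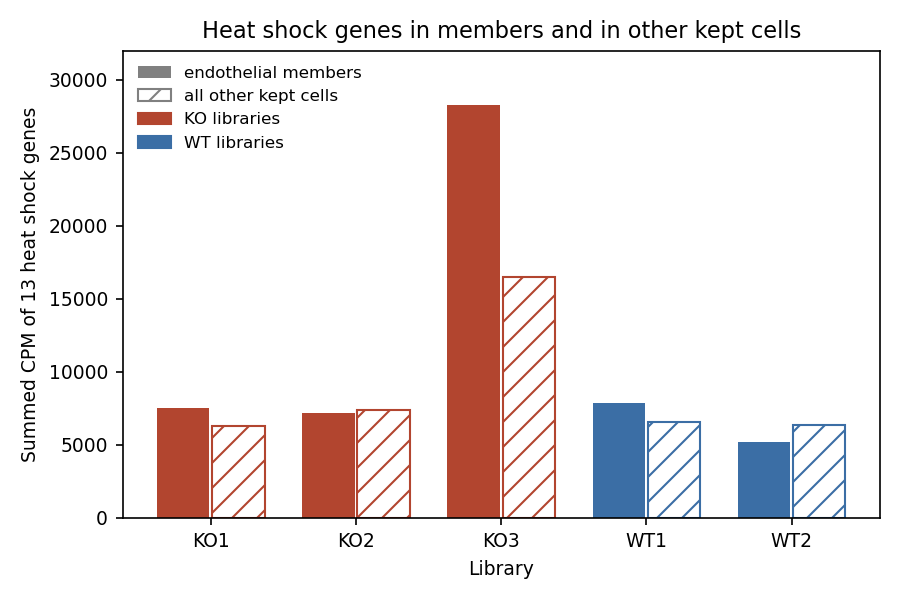
Summed CPM of the 13 heat shock genes (vertical axis) in the endothelial cells (solid bars) and in all other kept cells (hatched bars) of each library, KO libraries left of WT. KO3 is highest in both, at 28309 CPM in endothelial cells and 16517 CPM in other kept cells.

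Whether genotype acted on endothelial cells otherwise than on other stroma was tested as the difference of the 2 effects, with the library as a block. Against fibroblasts (2252, 894 and 770 cells in KO1, KO2 and KO3, and 1076 in WT1), edgeR called 0 of 13424 genes (0%), with 255 under 0.05 unadjusted, and DESeq2 called 0, with 69. Without KO2 the count was 5 and without KO3 it was 10, and with WT2 added it was 0. The smallest adjusted p-value was 0.477, for Gbp4 and F3. Gbp4, an interferon-induced GTPase, had a difference of log2 fold changes of 3.08 ± 0.62 (SE). Its endothelial levels were 167, 175 and 124 CPM in KO, against 155 and 157 CPM in WT, and its fibroblast levels 1.39, 1.67 and 1.65 CPM in KO, against 12.3 and 2.49 CPM in WT. The level that stood apart was that of the WT1 fibroblasts.

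For F3 the difference was -3.63 ± 0.75, and the fibroblast levels were 32.4, 59.5 and 17.2 CPM in KO, against 45.7 and 50.8 CPM in WT. Edn1, the vasoconstrictor peptide endothelin 1, had 142, 202 and 165 CPM in endothelial cells of KO, against 277 and 512 CPM in WT, with a difference of -2.59 ± 0.61 that did not pass (adjusted p = 1). Against pericytes (42, 18 and 11 cells in KO1, KO2 and KO3 and 37 and 10 in WT1 and WT2), all 5 libraries were used with a minimum of 10 cells, chosen after seeing the data. edgeR called 0 of 4616 genes (0%), with 119 under 0.05 unadjusted, and DESeq2 called 0, with 57. Without WT1 the count was 3, the contractile genes Myl9, Tagln and Acta2.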

How the data were processed

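The deposited files were, per the file headers and the labels, filtered 10x matrices of raw UMI counts per gene and barcode made by the authors with Cell Ranger 6.0.2 (6.1.2 for KO3) on mm10, with 32285 genes, 38 of whose symbols occur more than once. No annotation release or cell-calling rule is given in the sources used here. Kept cells and endothelial cells were chosen as described above. The members, gene lists and tests were chosen with earlier results of these data known. Doublets were scored against 2 simulated doublets per cell, the top 0.8% per 1000 barcodes were marked, and none was removed. Endothelial cells were clustered without the gate genes (2000 variable genes, 20 principal components, 15 neighbours, Leiden resolution 0.5; scikit-learn 1.9.0, leidenalg 0.10.2, igraph 0.11.9).

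For each library, the UMIs of all cells of a class were added up, and CPM is per 1000000 of that sum. Libraries with at least 20 cells of a class were tested with edgeR 4.0.16 in R 4.3.3 (filterByExpr, TMM, robust quasi-likelihood test, no replicate block), with Benjamini-Hochberg adjustment over all genes tested. The SE is the log2 fold change over the root of the F statistic. Difference tests had the library as a block. DESeq2 1.42.0, other filters, gates, normalization and leaving out each library were alternatives. Permutation tests used scipy 1.17.1. The steps were tested on simulated data. The p-values measure the spread between libraries, which were taken as 1 mouse each from the design text, handling included.

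Genes named in the genotype comparison needed separate library ranges and 20 CPM or more in the higher genotype. Where fewer than 5 in a direction passed the adjusted threshold of 0.05, the 8 with the smallest unadjusted p were named as not passing. Gene models without a name and gate genes were left out of these named genes, but gate genes stayed in the gene lists. Up to 5 per direction were eligible for each difference test. Cd74, Cdkn1c, Procr and Thbs1 were named after their values were seen.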

Additional observations from a re-analysis of the deposited data

How the results depend on the processing

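The KO minus WT difference in the share of endothelial cells kept its direction under every gate, filter and denominator tried, between 1.97 and 2.78 percentage points, and between 0.431 and 3.41 points when each library was left out, always with an exact permutation p too large to pass in this design. The count of genes called in endothelial cells was 0 in the 4-library comparison and became 3 with no filter on low counts, 5 with capillary-like and venous-like cells alone and 0 to 16 when each library was left out. In the 5-library comparison leaving out each library gave 0 to 0.

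The replicate numbers in the labels are shared by KO and WT for numbers 1 and 2. The deviations of the same-numbered libraries from their group means correlated at 0.379 (KO1 and WT1) and 0.653 (KO2 and WT2). KO3 and WT1, which share no number, correlated at 0.534, and with 2 WT libraries the WT deviations are mirror images. No label says what a number marks, so the fit with a replicate block is given only here. It called 10 of 4426 genes over the 5 libraries, with Rgs5 and Rsad2 higher in KO and Slc6a6, Zfp36, Cdkn1c, Tcim, Junb, Irf1, Ifi27l2a and Bach1 lower. With 4 libraries only the first pair is shared and no block was fitted.

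The difference from fibroblasts gave 10 calls with no filter and 0 to 10 when each library was left out, and the difference from pericytes 0 to 3. Subcluster shares turned with the libraries used. The arterial-like difference was 20.02 points, -20.3 with 5 libraries and -9.60 to 38.3 leaving out each. The capillary-like difference was -6.20, 11.5 and -16.7 to 8.44 points in the same order. The venous-like difference was -16.6 points, 1.16 with 5 libraries and -23.8 to -7.82 leaving out each. The unnamed subcluster gave 2.76 points and -3.43 to 8.98 leaving out each. At Leiden resolution 1.0 the arterial-like difference was 27.8 points. The arterial-like shares were then 0%, 91.7% and 1.42% in KO1, KO2 and KO3, against 3.23% and 84.2% in WT1 and WT2. Another cluster there took 19 of the arterial-like and 6 of the capillary-like cells. KO2 and WT2 still stood apart, but the make-up of each library depended on the resolution. Among single genes, F3 passed the threshold with no filter (-3.96), without KO2 (-4.73) and in capillary-like and venous-like cells (-5.04), and the other 186 values of named genes under alternatives kept their direction and stayed on the same side of the threshold. Some moved far in size: without the subcluster with pericyte genes, where 0 genes were called, Plagl1 was at -0.05 (-1.68 with it), Art3 at 6.52 (2.75 with it) and Zmiz2 at 6.37 (2.78 with it), both of which then had 0 UMIs in WT1, so that their fitted values are no bounds. The causes were not tested.

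Thinned clustering gave no counterpart for the last 3 subclusters, WT1 could not be left out with 4 libraries, and the difference from pericytes at a minimum of 20 cells left KO1 and WT1 alone, with no spread to test. The 19 to 141 endothelial cells per library limit every comparison: 3 UMIs are 18.5 CPM in KO1 and 2.63 CPM in KO3, and 10.8 CPM in WT1 and 17.5 CPM in WT2.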
